A study of Mus musculus with 17 samples.

Results

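Genes that type I interferons switch on were followed in mouse macrophages stimulated with interleukin 6 (IL-6), with and without the signalling inhibitor SOCS3. The set was a list of 39 genes known as interferon-stimulated. A gene was taken where the platform's annotation gave its symbol, alone, to a probe set of the array, and for a gene with several probe sets the one with the highest mean over all arrays was used. This gave 31 of the 39 genes, of 8252 genes named on the array, and all 31 passed the filter on dim probe sets. Bst2, Ifi203, Slfn3, Oas1a, Oasl1, Oasl2, Zbp1 and Xaf1 were not analysed here.

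The cells were macrophages grown from bone marrow of irradiated mice that had received fetal liver cells. The donor embryos were SOCS3+/+ (WT here) or SOCS3-/- (KO here). The macrophages came from donor-derived cells of that marrow, so all 6 groups share irradiation and reconstitution of the host. RNA was taken from unstimulated cells and after 100 or 400 min in IL-6 (10 ng/ml). The 17 arrays comprised 2 for unstimulated WT cells and 3 for every other combination of genotype and time. Strain, age and the way the gene was deleted were not given in the labels. The labels number the replicates but do not say whether these were separate cultures or mice, so the p-values reflect nothing but the spread among these arrays, and that spread may be technical.

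Type I interferons bind the receptor chains IFNAR1 and IFNAR2, whose kinases JAK1 and TYK2 phosphorylate STAT factors. The factor ISGF3 then binds the interferon-stimulated response element (ISRE) in promoters of antiviral genes, while paired STAT factors such as STAT3 bind a different element, the GAS. IL-6 signals through gp130, mainly by STAT3, and SOCS3 is the feedback inhibitor that docks on gp130.

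The elements can be read in the promoters of some of the genes described below. Promoter sequences from RefSeq (GRCm38.p6) were matched for 25 of the 31 genes, giving 32 promoters of 300 bases. The ISRE core was searched as GAAANNGAAA and the GAS core as TTCNNNGAA, on both strands. The ISRE core was present in 31.25% of the 32 promoters and in 3.44% of all 32851 promoters of the same length. The GAS core was present in 31.25% of the 32 promoters and in 8.30% of all. Printed here, because they belong to genes with large values in the KO cells and show each element, are the 250 bases before the start of 4 genes, 5′ to 3′ on the gene's own strand. Capitals mark the cores.

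Ifit1 (chr19:34640639-34640888, plus strand, 2 ISRE cores on the reverse strand): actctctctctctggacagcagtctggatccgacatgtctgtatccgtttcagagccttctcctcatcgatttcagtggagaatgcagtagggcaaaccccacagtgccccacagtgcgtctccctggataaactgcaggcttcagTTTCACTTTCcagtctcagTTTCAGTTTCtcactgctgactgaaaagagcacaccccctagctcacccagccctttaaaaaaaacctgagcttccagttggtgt
Isg15 (chr4:156200819-156201068, minus strand, 3 overlapping ISRE cores): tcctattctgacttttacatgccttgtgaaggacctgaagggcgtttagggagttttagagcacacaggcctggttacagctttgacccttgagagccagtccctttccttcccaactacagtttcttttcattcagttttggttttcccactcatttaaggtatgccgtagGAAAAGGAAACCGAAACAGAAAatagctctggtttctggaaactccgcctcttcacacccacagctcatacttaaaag
Plscr1 (chr9:92249944-92250193, plus strand, 1 GAS core): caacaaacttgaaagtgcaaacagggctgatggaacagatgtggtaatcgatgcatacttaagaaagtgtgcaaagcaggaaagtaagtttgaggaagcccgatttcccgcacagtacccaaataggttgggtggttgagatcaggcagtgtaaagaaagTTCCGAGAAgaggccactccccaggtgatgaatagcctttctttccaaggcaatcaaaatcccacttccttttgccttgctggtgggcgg
Ifi202b (chr1:173982845-173983094, minus strand, 1 GAS core): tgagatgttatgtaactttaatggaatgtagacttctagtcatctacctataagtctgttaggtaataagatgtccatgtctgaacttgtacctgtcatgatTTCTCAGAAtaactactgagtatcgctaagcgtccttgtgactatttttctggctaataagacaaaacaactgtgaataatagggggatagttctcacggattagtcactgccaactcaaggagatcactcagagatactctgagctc

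The ISRE cores of Ifit1 began 104 and 85 bases before its start, and those of Isg15 began 78, 72 and 66 bases before. The GAS core of Plscr1 began 90 bases before its start and that of Ifi202b 148 bases before. A match describes the letters only, and binding was not measured. Not every gene with a large value in KO cells held a core. Of the 2 promoters of Ifit2, 1 held a GAS core, 241 bases before the start, and the other held neither core. The promoter of Slfn2 held neither core. Mx1 had no entry in the promoter table.

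Expression is given as normalized intensity, a linear brightness of the probe set after the arrays were given a common distribution. Differences between groups are log2 differences of group means, with standard errors (SE), from limma's moderated test with Benjamini-Hochberg adjustment over 9871 probe sets. A gene is said to have risen or fallen where the adjusted p was under 0.05. The array medians of the deposited intensity lay between 164.25 and 216.95, and the 12 macrophage markers read summed to between 114345 and 160279 on every array. The arrays labelled replicate 3 differed from the rest. Of the 5, 4 lay at 26.7 to 58.2 on the first principal component (12.7% of the variance), above all 12 arrays of replicates 1 and 2, which reached 2.24. For the fifth, labelled KO 400 min replicate 3, the score was 0.97. Socs3 itself read 48.2 and 78.0 on the other 2 KO arrays at 400 min and 902 on that array, against 2035 to 2400 in WT cells at 400 min, so the main results for the KO 400 min group are also given without it. At 100 min replicate 3 also stood apart for Socs3. The WT array of replicate 3 read 432 against 2551 and 1808 on replicates 1 and 2. The KO array of replicate 3 at 100 min read 179 against 66.3 and 85.7. On a second Socs3 probe set KO 400 min replicate 3 read 793. The other KO arrays at 400 min read 121 and 78.9 on it, and the WT arrays 1105 to 1326. On the same probe set KO 100 min replicate 3 read 333, against 128 and 120 on the other KO arrays and 483 on WT 100 min replicate 3. Unstimulated KO replicate 3 read 107 on it, against 72.6 and 24.4 on the other KO arrays and 180 and 79.8 in WT cells. The deleted part of Socs3 is not stated in the labels. Arrays of the genotypes also differed in a pair of sex-linked genes, named after their values were seen: Eif2s3y lay at 245 to 789.7 in WT and at 7.55 to 111 in KO cells, and Xist at no more than 188 in WT and at 227 to 993 in KO cells. For both genes the ranges of the genotypes did not overlap, so this difference cannot be told apart from genotype in these arrays. Its part in the differences between genotypes was not tested.

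Most of the 31 genes had higher mean levels in KO cells after IL-6 than before it. The log2 difference from unstimulated KO cells was above 0 in 28 genes at 100 min and in 27 at 400 min, with medians of 0.86 and 0.72. Over all probe sets tested the medians were -0.04 at both times. In WT cells the list's median was 0.22 at 100 min, with 20 genes above 0, and -0.52 at 400 min, with 9 above 0. The WT median at 100 min was 0.0084 without WT 100 min replicate 1 and 0.51 without WT 100 min replicate 3, and that at 400 min was -0.18 without WT 400 min replicate 3. The KO median at 400 min was 0.68 without the array labelled KO 400 min replicate 3, with 27 genes above 0. These values describe the list and are not a test. Of the marker lists, the 14 proliferation markers read summed to 19670 to 23223 in KO cells at 400 min and to 24287 to 41236 in unstimulated KO cells, and the median log2 difference of the 13 tested was -0.79, with 0 of 13 passing limma's test. In KO cells at 100 min the summed B cell markers lay at 1152 to 1310, above 881 to 1120 in unstimulated KO cells, and the summed fibroblast markers at 1503 to 1652, below 1705 to 2141. The summed dendritic cell markers lay at 1297 to 1484 in WT cells at 100 min, below 1926 to 2074 in unstimulated WT cells. In WT cells at 400 min the summed macrophage markers lay at 125702 to 139394, below 146257 to 160279 in unstimulated WT cells. The part of any of these in the list's differences was not tested. In bulk RNA, fewer cells that express a gene and less RNA per cell cannot be told apart.

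**Figure D1:**
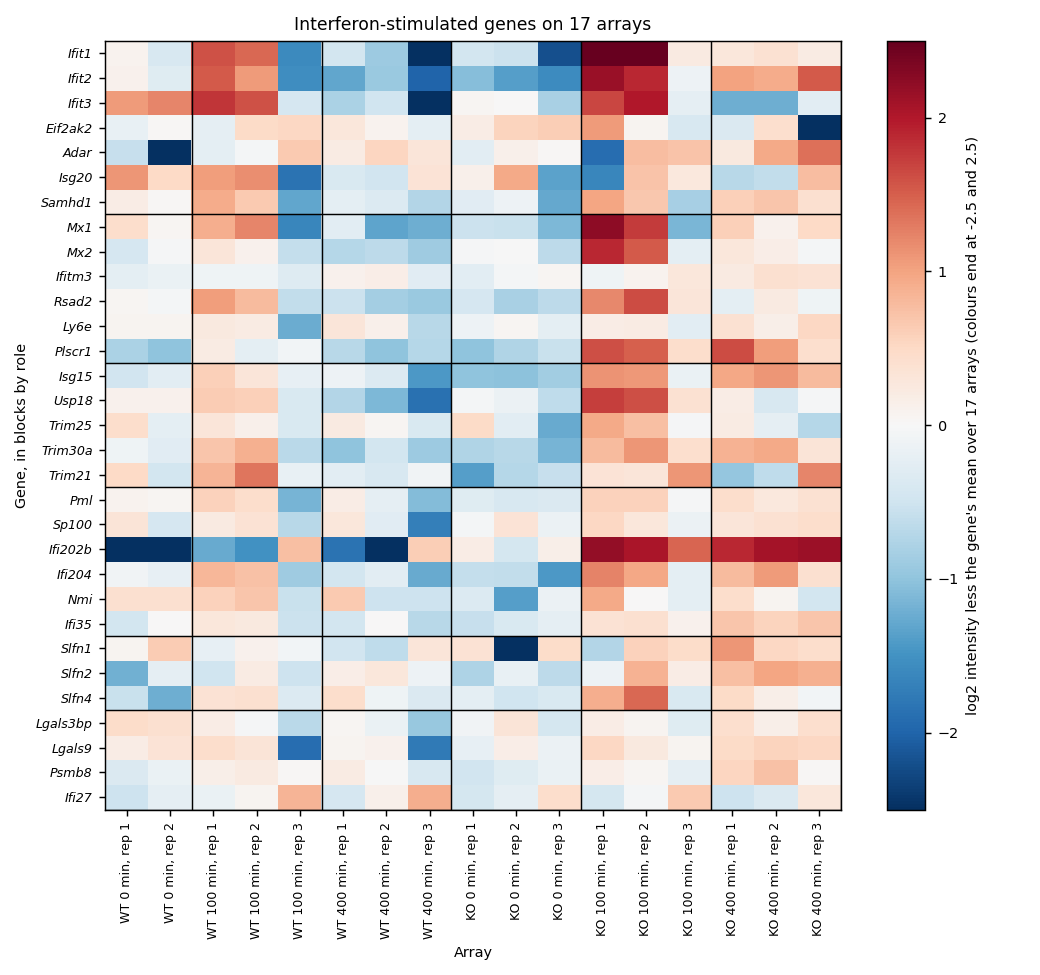
Log2 intensity of the 31 interferon-stimulated genes on each of the 17 arrays, less the gene's mean over all arrays, with genes in blocks by role. The KO arrays of replicates 1 and 2 at 100 min are the reddest columns, with Ifit1 at 5287 and 5527, and the KO arrays at 400 min are red for Ifi202b and Ifit2.

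In KO cells at 100 min, 1 of the 31 genes passed the test, against 0.577% of all probe sets, and 14 had an unadjusted p under 0.05 and were higher, against 3.66% of all probe sets. At 400 min, 4 of the 31 passed, all higher, against 1.82% of all probe sets. In 13 genes at 100 min all KO stimulated arrays lay above all KO unstimulated ones, against 5.69% of probe sets, and at 400 min this held for 19 genes, against 8.56%. Without the array labelled KO 400 min replicate 3 3 genes passed at 400 min, against 1.71% of all probe sets, and 22 were without overlap, against 15.2%. In WT cells 0 of 31 passed at either time, against 0.0101% of all probe sets at each, in limma's test. By unadjusted p under 0.05, 4 were higher in WT cells at 100 min, against 3.5% of all probe sets, and at 400 min 2 were higher and 3 lower, against 3.54% and 2.74%. All WT arrays at 100 min lay above both unstimulated WT arrays in 7 genes, against 10.7% of probe sets, and all WT arrays at 400 min lay below both in 13 genes, against 11.2%. The count of 1 in KO cells at 100 min became 4 when WT 100 min replicate 3 was left out (0.8% of all probe sets), 2 when WT 400 min replicate 3 was (0.598%), and 6 when it was KO 100 min replicate 3 (0.75%). It became 0 when replicate 1 or 2 of the unstimulated or the 100 min KO cells was left out, where 0.243% to 0.344% of all probe sets passed. The count of 4 at 400 min was 6 without WT 100 min replicate 3 (2.32% of all probe sets). It was 2 without replicate 1 of the WT cells at 100 or 400 min or their replicate 2 at 400 min (1.51% to 1.59%) and 1 without unstimulated KO replicate 3 (0.973%). It was 0 without replicate 1 or 2 of the unstimulated or the 400 min KO cells (0.74% to 0.881%).

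Plscr1, which encodes a phospholipid scramblase of the plasma membrane with antiviral activity, was the gene that passed most often. In KO cells Plscr1 read 339, 403 and 465 unstimulated (values here and below run from replicate 1 to replicate 3). It read 2081, 1909 and 928 at 100 min, and 2101, 1405 and 905 at 400 min. Each stimulated KO array was above each unstimulated one, with replicate 3 the lowest at both times. In WT cells Plscr1 read 395 and 337 unstimulated, 786, 573 and 648 at 100 min, and 422, 340.2 and 416 at 400 min. The WT arrays at 100 min were above the unstimulated ones, and those at 400 min overlapped with them.

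On the log2 scale and in limma's test, Plscr1 rose in KO cells by 1.95 after 100 min (SE 0.34, adjusted p = 0.0158). After 400 min the rise was 1.80 (SE 0.34, adjusted p = 0.0165). It was also 1.83 higher (SE 0.34, adjusted p = 0.0361) in KO than in WT cells at 400 min. Without the array labelled KO 400 min replicate 3 the last 2 values were 2.11 (limma, adjusted p = 0.00877) and 2.14 (adjusted p = 0.0177). The call at 100 min was lost without replicate 1 or 2 of the unstimulated or the 100 min KO cells, and that at 400 min against unstimulated without replicate 1 or 2 of the unstimulated or the 400 min KO cells. The call between genotypes held in 6 of 17 such fits, namely without either unstimulated WT array, WT 100 min replicate 3, KO 100 min replicate 1 or 3, or the array labelled KO 400 min replicate 3.

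Isg15, a ubiquitin-like protein that is joined to other proteins in interferon-treated cells, had its highest readings on stimulated KO arrays. In KO cells Isg15 read 956, 942 and 1059 unstimulated, 4164, 4058 and 1708 at 100 min, and 3781, 4105 and 3308 at 400 min. In WT cells it read 1372 and 1600.2 unstimulated, 2888, 2373 and 1658 at 100 min, and 1754, 1525 and 714 at 400 min. In KO cells all stimulated arrays lay above all unstimulated ones. In WT cells this held at 100 min, while at 400 min the arrays overlapped with the unstimulated ones.

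Isg15 rose by 1.92 (SE 0.38, adjusted p = 0.0214, limma) in KO cells at 400 min, and by 2.00 (adjusted p = 0.0411) without the array labelled KO 400 min replicate 3. It lost its call without any 1 of the unstimulated KO arrays or without replicate 1 or 2 of the KO cells at 400 min. At 100 min its log2 difference in KO cells was 1.64 (SE 0.38, adjusted p = 0.0992). Unstimulated KO arrays were all below unstimulated WT arrays for Isg15, with a log2 difference of -0.59 (SE 0.43, adjusted p = 0.900).

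Trim30a belongs to the TRIM family of ubiquitin ligases. In KO cells it read 411, 425 and 307 unstimulated, 1197, 1475 and 922 at 100 min, and 1265, 1321 and 859 at 400 min. In WT cells it read 637 and 568 unstimulated, 1114, 1269 and 433 at 100 min, and 343, 498 and 369 at 400 min. The WT arrays at 400 min were all below the unstimulated WT arrays, whereas the KO arrays at 400 min were all above the unstimulated KO arrays. Trim30a rose by 1.58 in KO cells at 400 min (SE 0.36, adjusted p = 0.0432, limma; 1.78 and adjusted p = 0.0469 without the array labelled KO 400 min replicate 3), and the call held in 4 of 17 fits that each left out 1 array, namely replicate 2 or 3 of the WT cells at 100 min or replicate 3 of the KO cells at 100 or 400 min.

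Slfn2 is a member of the Schlafen family, linked to the growth control of immune cells. In KO cells it read 6487, 9776 and 7038 unstimulated, 10203, 20331 and 12679 at 100 min, and 18662, 21983 and 20729.6 at 400 min. In WT cells it read 4815 and 9469 unstimulated, 7912, 12773 and 7779.9 at 100 min, and 12477, 13493 and 10203 at 400 min. Arrays at 400 min lay above the unstimulated ones in both genotypes. Slfn2 rose by 1.42 in KO cells at 400 min (SE 0.32, adjusted p = 0.0419, limma), and its value without the array labelled KO 400 min replicate 3 was 1.41 (adjusted p = 0.0924). On a second probe set for Slfn2 the value was 1.24 (adjusted p = 0.0569). The call held in 7 of 17 fits that each left out 1 array, namely either unstimulated WT array, replicate 3 of the WT cells at 100 or 400 min, their replicate 2 at 100 min, or replicate 1 or 2 of the KO cells at 100 min.

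The genes with the largest mean differences in KO cells were the RNA-binding antiviral proteins Ifit2 and Ifit1, and neither passed the test. With replicate 3 as a batch term in limma's fit both passed in KO cells at 100 min (adjusted p = 0.0483 for Ifit2 and 0.00859 for Ifit1), and Ifit2 passed at 400 min (adjusted p = 0.0291). In KO cells Ifit1 read 677, 639 and 203 unstimulated, 5287, 5527 and 1092 at 100 min, and 1134, 1208 and 1076 at 400 min. In WT cells Ifit1 read 989 and 703 unstimulated, 2804, 2503 and 310.2 at 100 min, and 679, 494 and 136 at 400 min. The 100 min arrays of replicates 1 and 2 were the highest of their genotype, and at 400 min the WT arrays were below the unstimulated ones while the KO arrays were above.

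In KO cells Ifit2 read 355, 287 and 248 unstimulated, 3301, 2754 and 675 at 100 min, and 1485, 1413 and 2150.5 at 400 min. In WT cells Ifit2 read 802 and 598 unstimulated, 2134, 1557 and 251 at 100 min, and 303, 389.8 and 185 at 400 min. At 400 min every KO array lay above every KO unstimulated array, and every WT array lay below every WT unstimulated one. In KO cells the log2 difference of Ifit2 after 100 min was 2.64 (SE 0.71, adjusted p = 0.203, limma), and after 400 min it was 2.49 (SE 0.71, adjusted p = 0.114). For Ifit1 these values were 2.84 (SE 0.87, adjusted p = 0.351) and 1.36 (SE 0.87, adjusted p = 0.621). Without the array labelled KO 400 min replicate 3 the values at 400 min were 2.30 for Ifit2 and 1.40 for Ifit1.

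**Figure D2:**
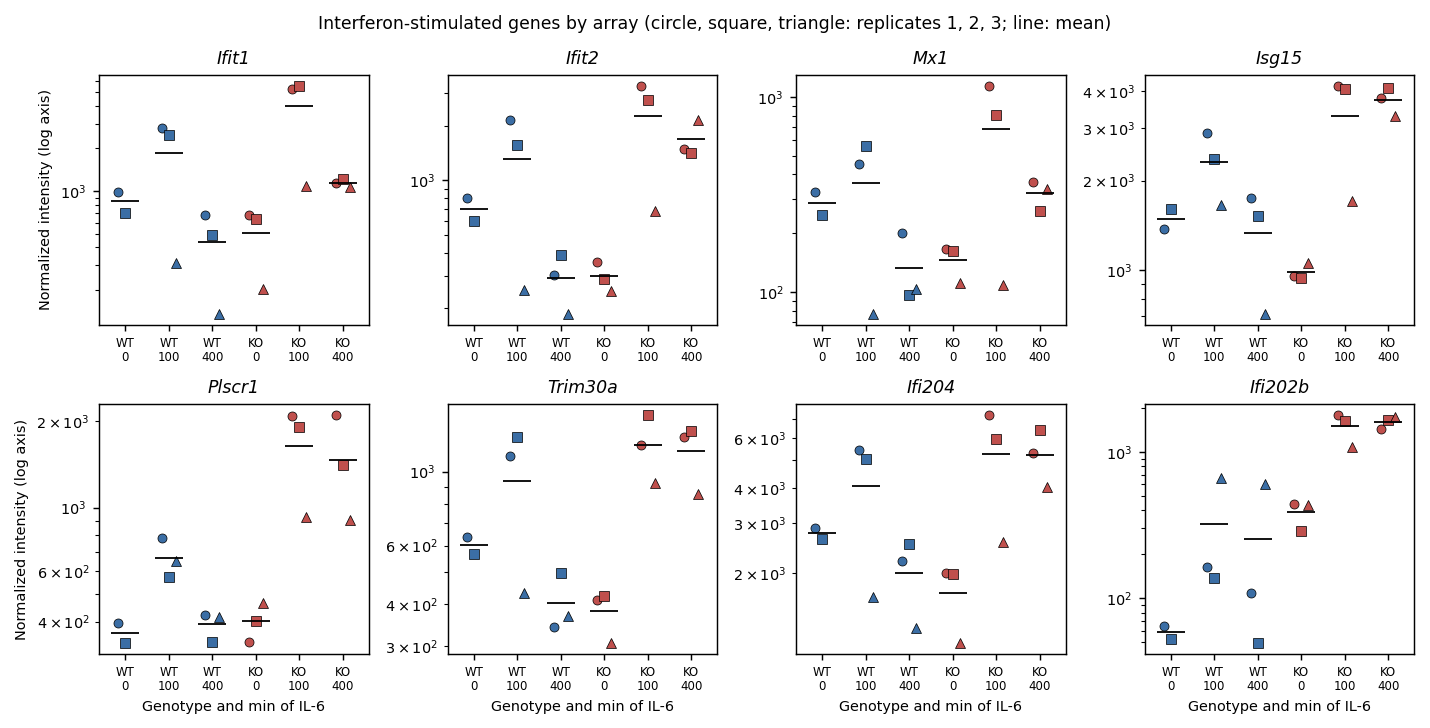
Normalized intensity (log axis) of 8 interferon-stimulated genes on each array, by genotype and minutes of IL-6, with circles, squares and triangles for replicates 1, 2 and 3 and a line at the group mean. Triangles lie below the other arrays in most WT 100 min and KO 100 min panels (Ifit1 at 310.2 and 1092), and above them in WT cells for Ifi202b (660.2 and 599).

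Mx1 encodes a dynamin-like GTPase that blocks influenza viruses. In KO cells it read 165, 162 and 111 unstimulated, 1139, 809 and 108 at 100 min, and 365, 260.3 and 338 at 400 min. In WT cells it read 326 and 247 unstimulated, 451, 557 and 77.1 at 100 min, and 200.1, 96.5 and 103 at 400 min. At 100 min the replicate 3 arrays of both genotypes were the lowest of their genotype at any time. The log2 differences of Mx1 in KO cells were 1.69 (SE 0.81, adjusted p = 0.821, limma) and 1.15 (SE 0.81, adjusted p = 0.656) at 100 and 400 min, the latter 1.10 without the array labelled KO 400 min replicate 3.

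Ifi204 and Ifi202b are related interferon-inducible proteins that bind DNA. In KO cells Ifi204 read 2001, 1977 and 1129 unstimulated, 7229.9, 5947 and 2575 at 100 min, and 5299, 6388 and 4020.3 at 400 min. In WT cells it read 2871 and 2644 unstimulated, 5434, 5075 and 1644 at 100 min, and 2201, 2537 and 1276 at 400 min. Stimulated KO arrays of Ifi204 were all above unstimulated ones, with log2 differences of 1.54 (SE 0.49, adjusted p = 0.380, limma) and 1.64 (SE 0.49, adjusted p = 0.136), the latter 1.82 without the array labelled KO 400 min replicate 3.

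Ifi202b, like Ifi27, read highest in WT cells on replicate 3. Its WT arrays read 64.6 and 53.2 unstimulated, 164, 137 and 660.2 at 100 min, and 108, 49.6 and 599 at 400 min. In KO cells it read 444, 290.2 and 433 unstimulated, 1782, 1619 and 1076 at 100 min, and 1437, 1642 and 1728 at 400 min. KO arrays lay above WT arrays at each time. The log2 difference of Ifi202b between KO and WT cells was 2.70 (SE 0.82, adjusted p = 0.628, limma) unstimulated and 3.44 (SE 0.73, adjusted p = 0.0749) at 400 min, or 3.38 (adjusted p = 0.135) without the array labelled KO 400 min replicate 3.

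At the other end of the list, 4 genes had the smallest mean differences in KO cells. Ifi27, a mitochondrial interferon-inducible protein, lay between 755 and 2011 over all arrays, with a log2 difference of 0.13 at 100 min and -0.12 at 400 min in KO cells. Lgals3bp, a secreted glycoprotein that binds galectins, lay between 1579 and 4171, with 0.05 and 0.40. Sp100, a component of nuclear bodies, lay between 195 and 917, with 0.16 and 0.33. Isg20, an RNA exonuclease, lay between 37.9 and 306, with -0.13 and -0.09. These small values for Isg20 joined opposite differences: -0.99 and -1.19 within replicates 1 and 2, and 1.60 and 2.12 within replicate 3. None of these 4 passed limma's test in KO cells, where the lowest adjusted p was 0.696.

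Grouped by role, every role had a median above 0 in KO cells at both times. The ISG15 system and TRIM ligases (Isg15, its protease Usp18, and Trim25, Trim30a and Trim21) had a median of 1.52 at 100 min and 0.76 at 400 min in KO cells, with 5 of 5 above 0 at each time. The dynamin-like GTPases and antiviral membrane proteins, among them Mx1, Mx2, Rsad2 and Plscr1, had medians of 1.48 and 0.52 with 6 of 6 above 0. The nuclear body and DNA-binding proteins had medians of 0.79 and 0.88 with 6 of 6 above 0. The RNA sensors and effectors had 0.84 and 0.89 with 4 of 7 above 0, and their lowest member at 400 min was Eif2ak2, the RNA-dependent protein kinase, at -1.38. For Eif2ak2 the difference was -0.35 within replicates 1 and 2 and -3.44 within replicate 3. Its 400 min array of replicate 3 read 22.4, near the floor of 21.8 used in processing. The Schlafens had 0.85 and 1.39 with 3 of 3 above 0. The remaining 4 genes (lectin-related, proteasome and other) had 0.22 and 0.49, with 4 and 3 of 4 above 0. Without the array labelled KO 400 min replicate 3 the median at 400 min was 0.34 for the ISG15 system and 0.64 for the RNA sensors. It was 0.47 to 1.41 for the other roles. The lowest RNA sensor in that fit was Ifit3, not Eif2ak2, at -0.97. In WT cells at 400 min the role medians were -0.97 for the RNA sensors, -0.34 for the GTPases and membrane proteins, -0.27 for the ISG15 system -0.48 for the nuclear proteins, -0.29 for the remaining 4 genes and 0.83 for the Schlafens.

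For WT cells at 400 against 100 min, 27 of the 31 genes were below 0 and the median log2 difference was -0.38, with 0 of 31 passing limma's test against 0% of all probe sets. By unadjusted p, 7 were lower, against 3.13% of all probe sets. The median was -0.86 without WT 100 min replicate 3. The summed dendritic cell markers lay at 1514 to 2067 in WT cells at 400 min, above 1297 to 1484 at 100 min, and their part was not tested. Of the 31 genes, 4 were above 0 in WT cells within replicates 1 and 2, and 12 within replicate 3. In KO cells 16 were above 0 and 15 below, the median was 0.00 and 0 of 31 passed limma's test, against 0% of all, while 3 were lower by unadjusted p, against 4.79%. Ifit3, of the same family as Ifit1, read 1993, 1748 and 430.4 at 100 min and 333, 412 and 38.7 at 400 min in WT cells, and 1833, 2316 and 495 then 247, 249 and 479 in KO cells. In both genotypes every Ifit3 array at 400 min lay below every one at 100 min, and neither difference passed the test. Usp18, the ISG15 protease that also damps interferon receptor signalling, read 1427, 1404 and 711 then 556, 425 and 253 in WT cells and 3048, 2818 and 1202 then 1045, 701 and 909.8 in KO cells, with the same separation of the times. Such a separation was found in 4 of the 31 genes in WT cells, against 5.7% of probe sets. In KO cells it was found in 3, against 7.52%.

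Between genotypes, the list's median was below 0 in unstimulated cells and above 0 after IL-6. Unstimulated, 9 genes were above 0 and 22 below in KO against WT cells, with a median of -0.42. Replicate 3 has a KO but no WT unstimulated array; the median was -0.17 with replicate 3 as a batch term and -0.26 within replicates 1 and 2, where 11 of 31 were above 0. In unstimulated cells the summed proliferation markers lay at 24287 to 41236 in KO against 20690 to 22512 in WT cells, and the summed neutrophil and myeloid precursor markers at 1007 to 1302 against 1580 to 1644. The summed dendritic cell markers lay at 1542 to 1764 against 1926 to 2074, and the part of these markers was not tested. All KO arrays lay below all WT arrays in 16 of the 31, against 11.7% of probe sets, and 0 passed limma's test, against 0% of all, while 2 were higher by unadjusted p, against 3.48%. At 100 min 24 were above 0, the median was 0.42 (0.0068 without WT 100 min replicate 3) and 0 passed limma's test, against 0.0405% of all, while 4 were higher by unadjusted p, against 2.49%. The summed dendritic cell markers at 100 min lay at 1724 to 1790 in KO against 1297 to 1484 in WT cells, and the summed fibroblast markers at 1503 to 1652 against 1707 to 1930; their part was not tested. At 400 min 27 were above 0, the median was 0.82 and 1 passed, Plscr1, against 0.365% of all. The count was 4 without WT 100 min replicate 3 (0.557% of all probe sets), and 0 in 10 of the 17 fits that each left out 1 array (0.111% to 0.263%). Without WT 400 min replicate 3 the 1 gene that passed was Ifi202b (0.142%), and the median was 0.49. Plscr1 alone passed without the array labelled KO 400 min replicate 3, against 0.557%, and the median was 0.76. All KO arrays lay above all WT arrays in 20 of 31 genes at 400 min, against 7.21% of probe sets, and in 21 without the array labelled KO 400 min replicate 3, against 13.9%.

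The KO response less the WT response was above 0 in 25 of 31 genes at 100 min (median 0.84, or 0.41 without WT 100 min replicate 3) and in 27 at 400 min (median 1.17). In limma's test of that difference 0 of 31 passed at either time, against 0% of all probe sets; unadjusted, 1 was higher at 100 min and 9 at 400 min, against 1.81% and 2.82% of all. These comparisons use the unstimulated arrays on both sides, of which the WT group holds 2. In 8 of the 31 genes every KO array at 400 min was above the KO unstimulated ones and every WT array was below the WT unstimulated ones, against 0.588% of probe sets. They were Ifit1, Ifit2, Mx1, Ifi204, Samhd1, Lgals9, Trim30a and Rsad2. Within replicates 1 and 2 the count was 10, against 2.35% of probe sets, and 9 without the array labelled KO 400 min replicate 3, against 1.11%. The reverse pattern was found in 0 of 31, against 0.415%.

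**Figure D3:**
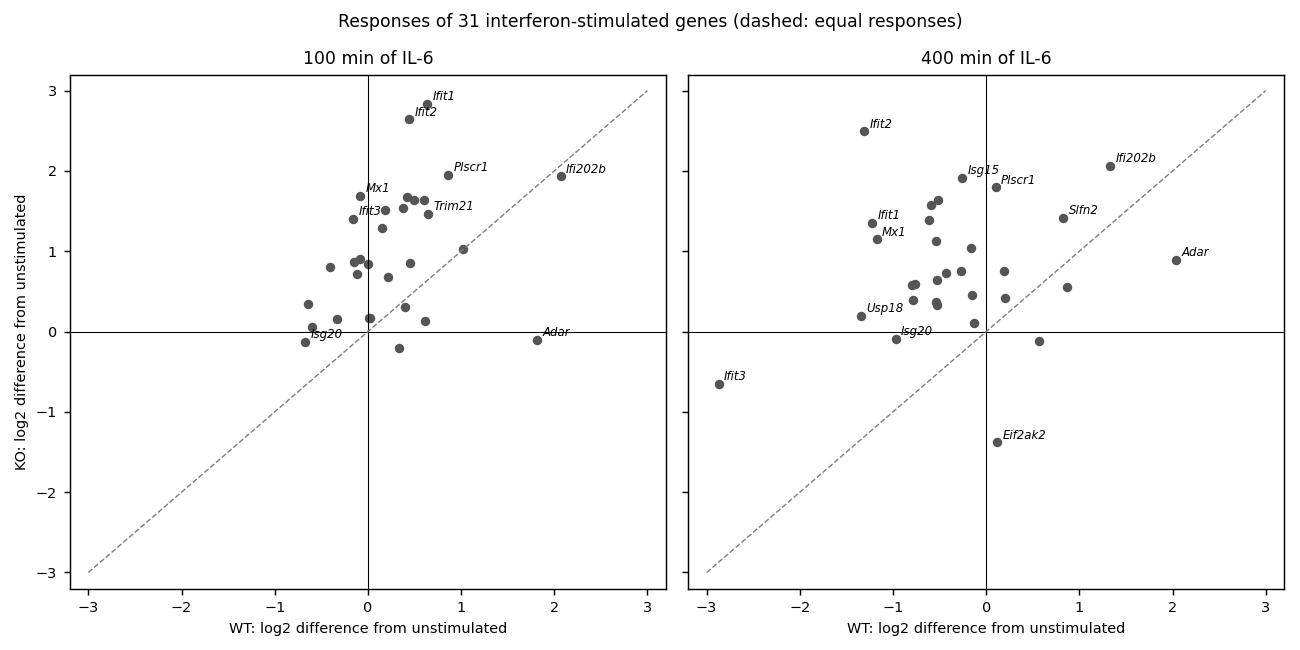
Log2 difference from unstimulated in KO (vertical) against WT cells (horizontal) for the 31 genes, at 100 and 400 min of IL-6, with a dashed line at equal responses. Most genes lie above the line, among them Ifit2 at 2.49 in KO and -1.31 in WT cells at 400 min, while Adar and Eif2ak2 lie below it.

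Most genes of the list read lower on arrays of replicate 3. With groups accounted for, 26 of the 31 genes were lower on replicate 3, with a median log2 difference of -0.64 against -0.02 over all probe sets. By limma's test 8 of 31 differed, against 7.28% of all probe sets. The count was 15 without the array labelled KO 400 min replicate 3 (7.08% of all probe sets), and 3 or 4 without replicate 3 of KO or WT cells at 100 min (3.5% and 3.1%). It was 5 (3.66% to 6.22%) without WT 100 min replicate 1 or 2, unstimulated KO replicate 1 or 3, KO 100 min replicate 1 or 2, or KO 400 min replicate 1. The log2 difference was -1.86 for Ifit1 (SE 0.31, adjusted p = 0.00558), -1.10 for Samhd1, a nucleotide hydrolase, and -1.05 for Ifi204. It was -0.82 for Trim25, -0.77 for Mx2, -0.73 for Usp18 and -0.64 for Trim30a, and Ifi27 was 0.87 higher (SE 0.13, adjusted p = 0.00421). The calls of Ifit1, Ifi204 and Ifi27 held in all 17 fits that each left out 1 array, and that of Trim30a in 2, without WT 400 min replicate 1 or 3. The 13 proliferation markers tested moved with replicate 3: 6 were higher, their median was 0.75, and the sum of the 14 read was 23223 to 41236 on its arrays and 18933 to 24918 on the others. The summed macrophage markers were 114345 to 127122 on replicate 3 and 127054 to 160279 on the others, with 3 of 12 lower and a median of -0.17. The summed neutrophil and myeloid precursor markers were 904 to 1238 on replicate 3 and 1280 to 2034 on the others, with 2 of the 8 tested lower and a median of -0.53. The part of these in the differences of the interferon-stimulated genes was not tested.

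**Figure D4:**
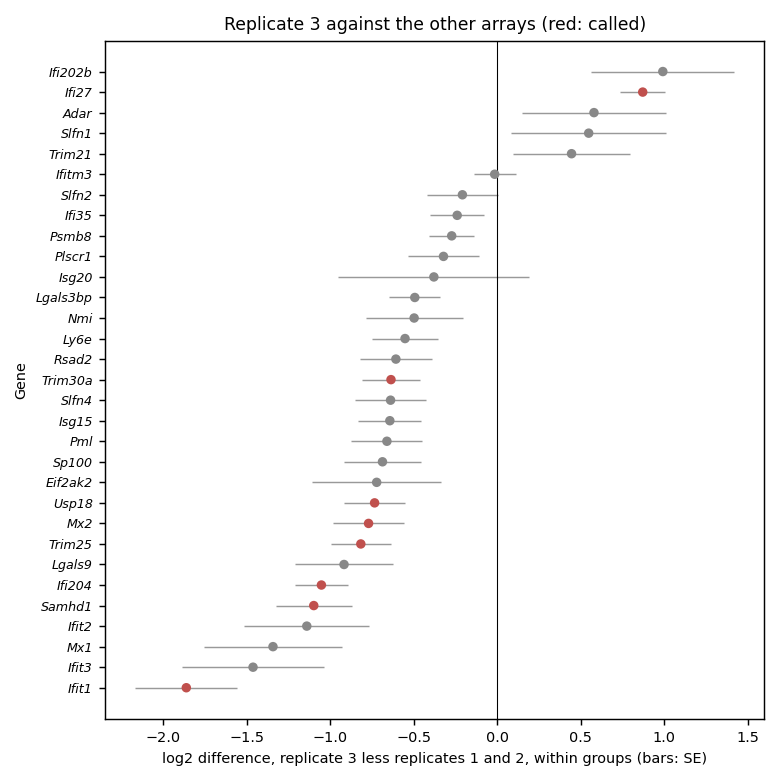
Log2 difference of replicate 3 arrays from replicates 1 and 2 within groups, for the 31 genes, with bars for the SE and red for genes that passed limma's test. Ifit1 lies lowest at -1.86, and Ifi202b and Ifi27 lie highest at 0.99 and 0.87.

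With replicate 3 as a batch term, more genes passed. In KO cells at 100 min, 8 of 31 rose, against 0.952% of all probe sets: Ifi204, Ifit1, Ifit2, Isg15, Plscr1, Rsad2, Trim30a and Usp18. At 400 min 7 rose, against 3.36%: Ifi204, Ifi35, Ifit2, Isg15, Plscr1, Slfn2 and Trim30a. Between genotypes at 400 min 5 were higher in KO cells, against 0.861%: Ifi202b, Ifi204, Isg15, Plscr1 and Trim30a. The batch term counted the array labelled KO 400 min replicate 3 as replicate 3. That array scored 0.97 on the first principal component, against 26.7 to 58.2 for the others of that number, so the term may describe it poorly. Within replicates 1 and 2 alone the counts were 12, 8 (7 higher and Ifit3 lower) and 6, against 1.19%, 2.81% and 1.24%. Within those replicates the list's median in KO cells was 1.19 at 100 min and 0.68 at 400 min, and within replicate 3 it was 0.45 and 0.76. In WT cells it was 0.51 at 100 min within replicates 1 and 2, with 29 of 31 above 0, and -0.18 at 400 min. Between genotypes it was 0.14 at 100 min and 0.53 at 400 min within replicates 1 and 2, and 0.54 and 1.21 within replicate 3. At 400 against 100 min it was -0.58 in WT and -0.19 in KO cells within replicates 1 and 2, and -0.15 and 0.32 within replicate 3. The response differences were 0.48 and 0.72 within replicates 1 and 2. Replicate 3 has no unstimulated WT array, so no WT response could be formed within it.

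**Figure D5:**
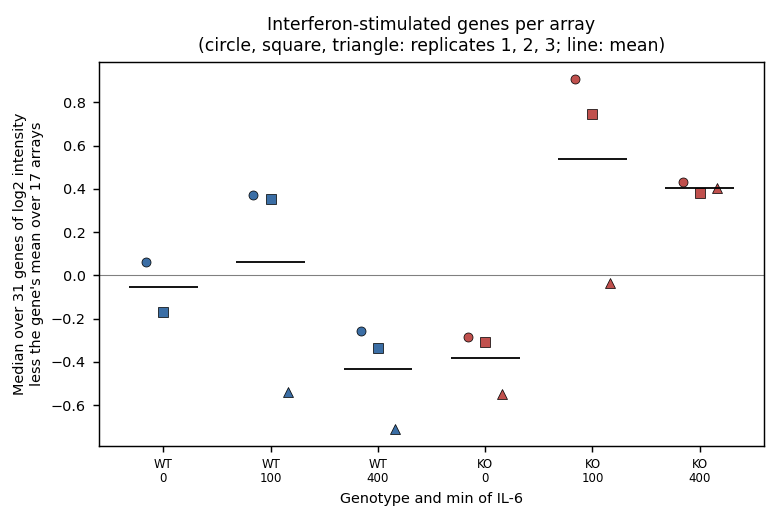
Median over the 31 genes of log2 intensity less the gene's mean over 17 arrays, for each array, with circles, squares and triangles for replicates 1, 2 and 3 and a line at the group mean. Replicates 1 and 2 of KO cells at 100 min lie highest, at 0.91 and 0.74, and the replicate 3 arrays of every group except KO 400 min lie below the other arrays of their group.

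Other genes of the pathway came from lists chosen by function. Of 7 interferon and receptor genes tested, 0 passed in any of the 11 comparisons between groups, where 0% to 1.82% of all probe sets passed. At such shares a count of 0 among 7 genes does not show that they were unchanged. Ifnb1, the interferon beta gene, was dim, with group means between 61.0 and 170.3. Of 5 kinase and STAT genes tested, 1 passed in KO cells at 400 min, against 1.82% of all probe sets. It was Stat3, the main factor of IL-6 signalling, which rose by 1.37 (SE 0.25, adjusted p = 0.0128, limma). Between genotypes at 400 min 0 of the 5 passed, against 0.365% of all probe sets. In WT cells at 400 min 0 of the 5 passed, against 0.0101%. Of 5 interferon regulatory factors tested, 1 passed in KO cells at 100 min, against 0.577% of all probe sets, and 1 at 400 min, against 1.82%. Between genotypes at 400 min 1 passed, against 0.365%. Irf1, itself a target of STAT factors, rose in KO cells by 2.62 after 100 min (SE 0.35, adjusted p = 0.00328, limma). After 400 min its rise was 2.67 (SE 0.35, adjusted p = 0.00200), and it was 2.15 higher (adjusted p = 0.0202) than in WT cells at 400 min. Of 6 feedback inhibitors tested, 1 passed between genotypes at 400 min, against 0.365% of all probe sets. It was Socs1, an inhibitor of JAK kinases, 2.59 higher (SE 0.46, adjusted p = 0.0339, limma) in KO than in WT cells. Its means were 842.7 ± 13.2 and 145 ± 48.6 (SD, n = 3 each). Against unstimulated KO cells 0 of the 6, Socs1 included, passed in KO cells at 400 min, against 1.82% of all probe sets. Without the array labelled KO 400 min replicate 3 Socs1 no longer passed between genotypes (2.58, adjusted p = 0.0603, limma). Stat3 (1.47 against unstimulated, adjusted p = 0.0208) and Irf1 (2.74 against unstimulated and 2.23 between genotypes) still passed. In that fit Stat3 was 0.46 higher in KO than in WT cells at 400 min (adjusted p = 0.683, limma). Socs1 in KO cells at 400 min was 1.55 above unstimulated (adjusted p = 0.223).

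The genes outside the list whose 6 group means followed those of Isg15 most closely, of 7032 genes compared, were Ifi47 (Pearson r = 0.995), Ino80c (0.991), Gbp2b (0.986), Epor (0.985), Cul2 (0.983) and Gbp3 (0.979). Ifi47, Gbp2b and Gbp3 encode interferon-inducible GTPases. Within the list Ifi204 (0.987), Trim30a (0.976) and Ifi35 (0.965) were closest to Isg15. These correlations rest on 6 points that share arrays, and carry no test.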

How the data were processed

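For each of 12488 probe sets, the deposited series table gives a linear intensity on every array. The authors' software, background correction and scaling were not given in the sources used here; from the values, the mean after leaving out the lowest and highest 2% was about 500.3 on every array, so the deposited intensity had been scaled per array. There are no detection calls, and the number of arrays limits the precision.

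Array medians differed by 0.40 on the log2 scale, over the limit of 0.3, so the intensities were quantile normalized, given a floor at the 10th percentile (21.8) and log2 transformed. After 66 control probe sets were left out, a probe set was tested when 2 or more arrays placed it above their 40th percentile, which left 9871. Levels in the text are normalized intensities before the floor, and the 31 genes were above it on all arrays. Limma 3.58.1 in R 4.3.3 fitted 1 mean per group over 17 arrays, with eBayes (prior degrees of freedom 2.59, residual 11), in 11 comparisons and, with a term for replicate 3, for that replicate. The fit was tested on simulated data. Groups were taken from the titles.

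Values are given per array for genes that passed in any of the 11 comparisons, for the 8 with the largest mean absolute difference in KO cells and, in short, for the 4 with the smallest; Ifit3 and Usp18 were added after their values were seen. The members and lists were chosen with earlier results of these data known. Alternatives were other scalings, floors, filters and probe sets, an intensity trend, the replicate number or replicate 3 as a block, subsets of arrays, and leaving out each array. Gene names came from the platform annotation.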

Additional observations from a re-analysis of the deposited data

Results flagged for a closer look

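In 8 of the 31 genes every KO array at 400 min lay above the unstimulated KO arrays and every WT array lay below the unstimulated WT arrays, against 0.588% of probe sets. The unstimulated WT group holds 2 arrays and none of replicate 3, on which most of the genes read lower. Within replicates 1 and 2 the count was 10, against 2.35% of probe sets. The KO response less the WT response, on the log2 scale, was 3.80 for Ifit2, 2.58 for Ifit1, 2.32 for Mx1, 2.18 for Trim30a, 2.16 for Ifi204, 1.67 for Samhd1, 1.37 for Lgals9 and 1.36 for Rsad2. None of the 8 passed limma's test of that difference, with adjusted p from 0.401 (Trim30a) to 0.926 (Lgals9).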

How the results depend on the processing

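The sign of the list's median was kept under both other scalings in all comparisons except KO cells at 400 against 100 min, where it was near 0. Among values of single genes under an alternative, 0 reversed a call, 78 lost one and 83 gained one. Shares of all probe sets that passed stand in parentheses. In KO cells at 100 min the count of genes that passed was 4 with a stricter filter (1.31%), 4 with an intensity trend (0.821%), 0 with only the groups compared (0%), 12 within replicates 1 and 2 (1.19%), and 8 with replicate 3 as a batch block (0.952%), against 1 (0.577%). At 400 min it was 2 with median centring (1.27%), 2 without a filter (1.15%), 2 with second probe sets (1.82%), 8 with an intensity trend (3.11%), 7 with the batch block (3.36%) and 8 within replicates 1 and 2 (2.81%), against 4 (1.82%). Between genotypes at 400 min it was 0 with median centring (0.213%), 0 with only the groups compared (0.0203%), 2 with a stricter filter (1.05%), 5 with a trend (0.709%), 5 with the batch block (0.861%) and 6 within replicates 1 and 2 (1.24%), against 1 (0.365%). Within replicates 1 and 2 it was 1 in WT cells at 400 min (0.142%), 3 and 2 for 400 against 100 min in WT and KO cells (0.162% and 0.142%), 2 between genotypes at 100 min (0.304%), and 1 for the response difference at 400 min (0.111%; also 1, 0.0507%, with only the groups compared), against 0 in each. For replicate 3 it was 16 with the stricter filter (18.2%) and 17 with the trend (11.3%), against 8 (7.28%). Medians moved by more than the spread of 0.34 within replicates 1 and 2 in WT cells at 400 min (-0.18) and for the response difference at 100 min (0.48) and 400 min (0.72), and within replicate 3 in KO cells at 100 min (0.45) and between genotypes at 400 min (1.21). The cause of these changes was not tested.

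Leaving out 1 array at a time, the count ranged from 0 to 6 in KO cells at 100 min, from 0 to 6 at 400 min, from 0 to 4 between genotypes at 400 min and from 3 to 15 for replicate 3. The medians ranged from -0.52 to -0.18 in WT cells at 400 min, 0.64 to 1.20 in KO cells at 100 min, -0.86 to -0.25 for WT cells at 400 against 100 min, 0.0068 to 0.65 between genotypes at 100 min and 0.41 to 1.13 for the response difference at 100 min. The lowest of the last 2 came without WT 100 min replicate 3.

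With the replicate number as a block (replicate block) the counts were 7 in KO cells at 100 min (0.871%), 7 at 400 min (3.09%) and 5 between genotypes at 400 min (0.577%). The numbers are not said to pair the arrays: the median correlation of deviations from group means was 0.04 for arrays numbered 1, 0.04 for 2, 0.14 for 3 and -0.04 for different numbers.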
